A study of Mus musculus with 18 samples.

Results

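The unfolded protein response (UPR) and protein folding in the endoplasmic reticulum (ER) were followed through 35 genes in a brown adipocyte line. The genes were chosen by symbol, as sensors, chaperones, disulfide enzymes, degradation factors and translocation or traffic factors, and all 35 had a row among the 17672 genes of the count table. The cells were an immortalised mouse brown preadipocyte line that had been differentiated in culture. All 6 groups carried a stable shRNA against Abhd5, whose protein activates the triglyceride lipase ATGL. They also carried a construct for ABHD5 with an mCherry tag that the shRNA does not target and that doxycycline (Dox) switches on. Cells were left without Dox or received 1 µg/ml (24 to 48 h by the labels, 24 h by the study's description of the Dox experiment), and were then given the vehicle DMSO for 3 h, or 10 nM isoproterenol (ISO, a β-adrenergic agonist) or 20 µM SR-3420 (a synthetic ABHD5 ligand that starts lipolysis without the agonist). Each group held 3 libraries, described in the study's methods as independent experiments. No group received Dox without the construct, so the drug and the re-expressed protein cannot be told apart, and a single engineered line was used.

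When folding capacity of the ER falls short, the sensors IRE1α (Ern1), PERK (Eif2ak3) and ATF6 (Atf6, with its relative Atf6b) signal to the nucleus. IRE1α splices the Xbp1 mRNA into the template of an active transcription factor, ATF6 is cut to release another, and PERK slows translation and favours factors that induce amino acid and stress genes. Together they raise chaperones, disulfide enzymes and the ER-associated degradation (ERAD) machinery, which returns misfolded proteins to the cytosol for destruction. In brown fat the response is known to follow changes in lipid load and secretory demand.

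Many ER chaperone promoters hold the ER stress element, CCAAT and CCACG 9 bases apart, which ATF6 binds with NF-Y. In the 250 bases before and 50 bases after the annotated starts (mouse build mm9, both strands searched), 10 of the 35 promoters held it (28.6%), against 27 of 17672 promoters of all genes (0.153%). The 10 were those of Calr, Canx, Creld2, Derl3, Dnajc3, Ero1lb, Hsp90b1, Hspa5, Pdia6 and Syvn1. The ER stress element II, ATTGG and CCACG 1 base apart, was in 4 (Dnajb11, Herpud1, Hyou1 and Manf, 11.4%), against 0.0566% of all promoters. The XBP1-type core TGACGTGG was in Hyou1 and Sec24d only (5.71% against 0.804%). The bare letters CCACG, which lie within both elements, were in 28 of 35 (80%) against 41.6%, and the cAMP response element TGACGTCA was in 0 of 35, against 2.66% of all promoters. These are matches of letters, not measured binding. The windows of 4 genes are printed because these are the clearest cases below: Hspa5, a classical target that did not pass any test, Herpud1, which fell with ISO, and Dnajb9 and Derl1, which rose with both stimuli in the groups with Dox. Capitals mark the ER stress element ends in Hspa5, the element II ends and a lone CCACG in Herpud1, and single CCACG sites, on either strand, in Dnajb9 and Derl1. The sequences run 5′ to 3′ along the gene's own strand.
Hspa5 (chr2:34627360-34627659, plus strand): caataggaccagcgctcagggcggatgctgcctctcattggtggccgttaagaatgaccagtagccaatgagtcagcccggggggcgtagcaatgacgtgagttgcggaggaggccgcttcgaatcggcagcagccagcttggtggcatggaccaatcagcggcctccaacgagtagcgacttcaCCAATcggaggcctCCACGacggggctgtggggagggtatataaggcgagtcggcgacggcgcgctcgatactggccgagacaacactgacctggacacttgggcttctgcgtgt
Herpud1 (chr8:96910150-96910449, plus strand): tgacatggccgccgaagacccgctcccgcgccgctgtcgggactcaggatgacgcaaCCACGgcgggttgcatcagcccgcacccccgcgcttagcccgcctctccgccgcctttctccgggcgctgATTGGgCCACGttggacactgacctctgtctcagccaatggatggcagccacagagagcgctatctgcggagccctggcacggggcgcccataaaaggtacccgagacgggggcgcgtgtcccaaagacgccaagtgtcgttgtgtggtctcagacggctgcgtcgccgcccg
Dnajb9 (chr12:45311006-45311305, minus strand): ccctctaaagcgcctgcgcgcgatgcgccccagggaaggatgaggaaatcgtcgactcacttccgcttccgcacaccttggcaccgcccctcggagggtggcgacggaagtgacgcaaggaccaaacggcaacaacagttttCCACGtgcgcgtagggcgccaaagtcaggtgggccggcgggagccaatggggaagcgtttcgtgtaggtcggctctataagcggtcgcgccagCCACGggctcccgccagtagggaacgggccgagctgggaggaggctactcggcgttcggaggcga
Derl1 (chr15:57723924-57724223, minus strand): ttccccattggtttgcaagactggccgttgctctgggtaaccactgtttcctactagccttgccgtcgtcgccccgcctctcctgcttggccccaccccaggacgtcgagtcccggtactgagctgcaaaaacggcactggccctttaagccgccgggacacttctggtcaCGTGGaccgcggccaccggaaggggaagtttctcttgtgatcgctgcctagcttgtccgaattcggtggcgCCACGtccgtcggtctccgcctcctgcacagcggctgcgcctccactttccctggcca

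Library totals ran from 689910 to 1956565 counts, with a median of 1145729. Values below are counts scaled to a library of 1000000 (CPM), with totals corrected by edgeR's TMM factors, and a fold change is a log2 ratio of group means with its standard error (SE). A gene is said to have risen or fallen where edgeR's quasi-likelihood test, two-sided and adjusted by Benjamini-Hochberg over the 10178 genes tested, gave an adjusted p at or under 0.05. Among the 35, 34 were tested, and Sdf2l1, a chaperone cofactor with 1 to 18 counts per library, fell below the filter on low counts. Replicate 1 of SR-3420 with Dox stood apart, with 35.6% of its counts in its 10 highest genes against 16.3% to 26.5% elsewhere, and results that rest on it are also given without it. Abhd5 followed the labels, with a mean of 52.2 CPM ± 4.68 (SD, n = 3) in DMSO without Dox and 570 ± 85.5 with Dox (log2 fold change 3.46, SE 0.17, adjusted p = 2.46e-14 by edgeR). ISO itself raised Abhd5 without Dox, to 148 CPM ± 21.8 (1.51, SE 0.18, edgeR adjusted p = 3.34e-07), and by less with Dox, to 820 ± 28.2 (0.52, SE 0.14, edgeR adjusted p = 0.00503; difference -0.98, SE 0.23, edgeR adjusted p = 0.0194). For 65.7% of the 35 genes the deposited counted length lay within 10% of the annotated intron length and for 11.4% within 10% of the exon length. Of 2807 protein-coding genes annotated with single-exon transcripts only, 1.53% had a row, against 84.7% of 19431 others. Both values point to counts taken in introns, that is to unspliced RNA, although the methods name the gene option of the counting tool. Abhd5 counts rose with the construct nonetheless, and such constructs are usually built without introns, so which reads were counted is not settled and a CPM value may stand for unspliced RNA, mature RNA or both. The splicing of Xbp1 by IRE1α cannot be read from gene counts. Counting was not stated to use strand, and Derl2, Pdia3, Pdia6, Sec24d and Syvn1 overlap another protein-coding gene, so their values are uncertain in that respect.

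Levels between genes depend on the length used, and are given per kb of the deposited counted length and of the whole gene. Per kb of counted length, Hspa5 (BiP, the main ER chaperone) had the highest mean level in DMSO without Dox, at 91.5 CPM per kb ± 27.5 (SD, n = 3). Calr (calreticulin, a chaperone of glycoproteins) followed at 50.8 ± 4.72, and every Hspa5 library lay above every Calr library. Per kb of whole gene the order was the same, but at 37.5 ± 11.3 and 30.4 ± 2.82 CPM per kb the libraries of this pair overlapped. Hsp90b1 (GRP94, an ER chaperone of the HSP90 family) stood at 17.5 ± 2.44 CPM per kb and Syvn1 (the ERAD ubiquitin ligase HRD1) at 16.4 ± 3.93, values that did not differ beyond their spread. Per kb of whole gene Hsp90b1 kept rank 3, at 13.3 ± 1.85, while Syvn1 went from rank 4 to rank 12, at 5.14 ± 1.23. Atf6 was lowest, at 0.0998 ± 0.0219 CPM per kb, below Ero1lb (an ER oxidase) at 0.282 ± 0.0279 and Ern1 at 0.327 ± 0.0540. Xbp1, at 13.8 ± 1.64 CPM per kb, had the highest level of the sensor-branch genes. Per kb of whole gene Xbp1 was again at rank 6, and Ern1, Ero1lb and Atf6 again held the lowest 3 ranks.

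The set as a whole stayed near 0. The median log2 fold change over the 34 genes was -0.02 for ISO without Dox, -0.03 for ISO with Dox, -0.00 for SR-3420 without Dox and -0.01 for SR-3420 with Dox, beside -0.01, -0.02, -0.00 and -0.01 over all genes tested. A small number of genes moved, in both directions. The ISO and SR-3420 comparisons within a Dox state share their DMSO libraries, so their values are set side by side and not counted as separate evidence. The heat map of fold changes shows how sparse they were and how they split by role.

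**Figure D1:**
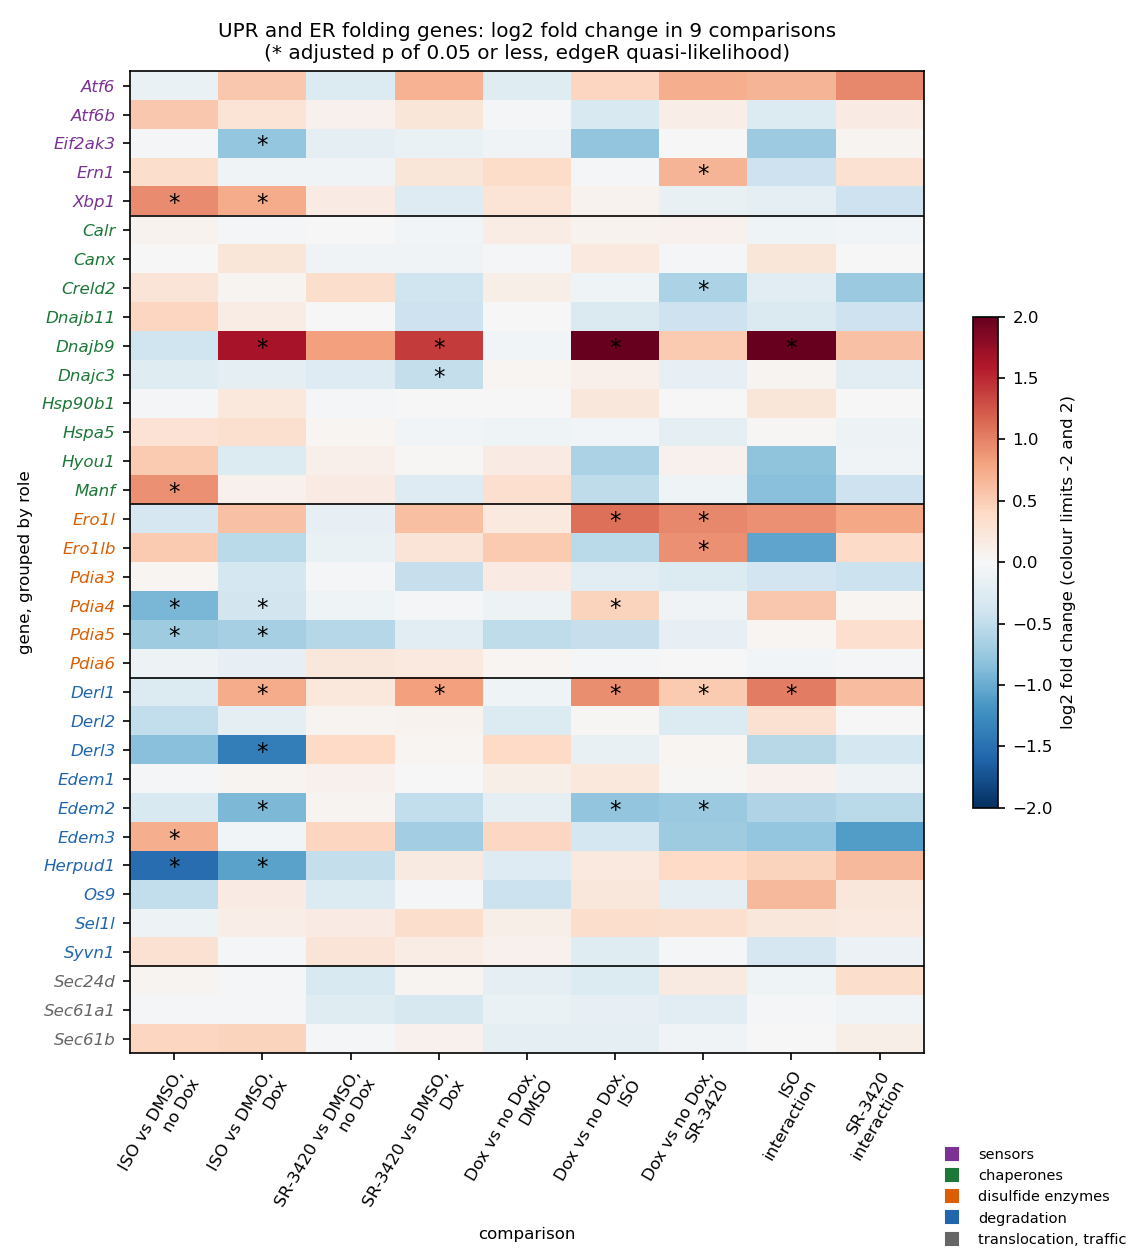
Log2 fold change (colour) of the 34 tested genes (rows, grouped and coloured by role) in the 9 comparisons (columns), with a star where edgeR's adjusted p was 0.05 or less. Dnajb9 and Derl1 are starred and red for ISO and SR-3420 with Dox, Herpud1 is starred and blue for ISO without and with Dox, and Hspa5, Hsp90b1, Calr and Canx carry no star.

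ISO without Dox asked how the agonist acts under the Abhd5 knockdown. Of the 34 genes 3 rose and 3 fell, against 14.5% of all tested genes that rose and 13.5% that fell. With library totals only 1 rose and 4 fell (845 and 1928 over all genes), and with upper-quartile factors 1 and 3 (1320 and 1547). The gene that fell furthest was Herpud1, an ER membrane protein that organises the ERAD complex. Its 3 libraries read 117, 108 and 93.6 CPM in DMSO and 35.4, 37.4 and 38.0 CPM in ISO. The groups did not overlap, with a log2 fold change of -1.52 (SE 0.21 by edgeR, adjusted p = 1.94e-06). Pdia4 (ERp72, a disulfide isomerase) read 146, 119 and 129 CPM in DMSO and 68.7, 64.9 and 74.5 CPM in ISO, again without overlap (-0.92, SE 0.14, edgeR adjusted p = 9.86e-06). Pdia5, another isomerase, fell by 0.71 on the log2 scale (SE 0.20, edgeR adjusted p = 0.00912), a call lost without replicate 3 of DMSO (-0.58). Xbp1 rose, from 36.2, 45.9 and 40.3 CPM in DMSO to 75.1, 95.4 and 63.3 CPM in ISO. All 3 ISO libraries lay above all 3 DMSO libraries, with a log2 fold change of 0.94 (SE 0.21 by edgeR, adjusted p = 0.00125). Manf, a secreted ER-stress protein, rose by 0.92 (SE 0.35, edgeR adjusted p = 0.0472) and Edem3, a mannosidase that marks glycoproteins for ERAD, by 0.72 (SE 0.26, edgeR adjusted p = 0.0416). Both calls were weak: Manf lost its call without any one of 4 of the 6 libraries and Edem3 without any one of 5, and by DESeq2 neither passed.

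ISO with Dox asked the same of cells with ABHD5 restored. Here 3 of the 34 genes rose and 6 fell, against 16.4% and 16.1% of all tested genes. With a replicate block 11 were called, Ero1l and Pdia3 in addition, against 4020 of the 10178 genes tested. Herpud1 fell and Xbp1 rose, as without Dox in direction. Herpud1 read 85.5, 104 and 78.0 CPM in DMSO and 45.5, 26.6 and 56.4 CPM in ISO (-1.07, SE 0.20, edgeR adjusted p = 0.000117). Xbp1 read 51.1, 56.8 and 36.8 CPM in DMSO and 75.3, 102 and 65.0 CPM in ISO (0.74, SE 0.19, edgeR adjusted p = 0.00394). In neither gene did the groups overlap.

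Dnajb9 (ERdj4, a J-domain cochaperone of BiP that also restrains IRE1α) rose most with ISO and Dox. It read 6.21, 9.30 and 8.92 CPM in DMSO and 23.2, 28.1 and 22.0 CPM in ISO. The lowest ISO library was thus above the highest DMSO library by more than the range of either group, and the log2 fold change was 1.66 (SE 0.33, edgeR adjusted p = 0.000292). Without Dox the same gene had read 6.18, 8.10 and 10.1 CPM in DMSO and 8.59, 1.97 and 7.45 CPM in ISO, with overlap. Derl1, a derlin of the ERAD channel, read 105, 144 and 105 CPM in DMSO with Dox and 237, 186 and 166 CPM in ISO with Dox (0.75, SE 0.18, edgeR adjusted p = 0.00148). Its ISO libraries lay above every DMSO library with Dox, whereas without Dox they read 110, 111 and 89.4 CPM beside 122, 132 and 121 CPM in DMSO. Dnajb9, Derl1, Xbp1, Herpud1, Edem2 and Derl3 kept their calls with each of the 6 libraries left out in turn.

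Among the genes that fell with ISO and Dox, Edem2 (of the same ERAD family as Edem3) went from 42.0, 40.3 and 56.9 CPM to 20.7, 30.5 and 22.0 CPM, without overlap (-0.89, SE 0.22, edgeR adjusted p = 0.00284). Derl3, another derlin, fell from 23.9, 17.6 and 18.9 CPM to 10.8, 7.03 and 5.73 CPM, also without overlap (-1.38, SE 0.35, edgeR adjusted p = 0.00294). The remaining falls were smaller or less firm. They were Pdia5 (-0.67), Pdia4 (-0.37) and Eif2ak3 (-0.77), and each lost its call when certain single libraries were left out. Dnajb9, Derl1, Edem2, Derl3 and Eif2ak3 were not called without Dox, but a call in one arm and not in the other is no test of the difference, which the interaction below gives.

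**Figure D2:**
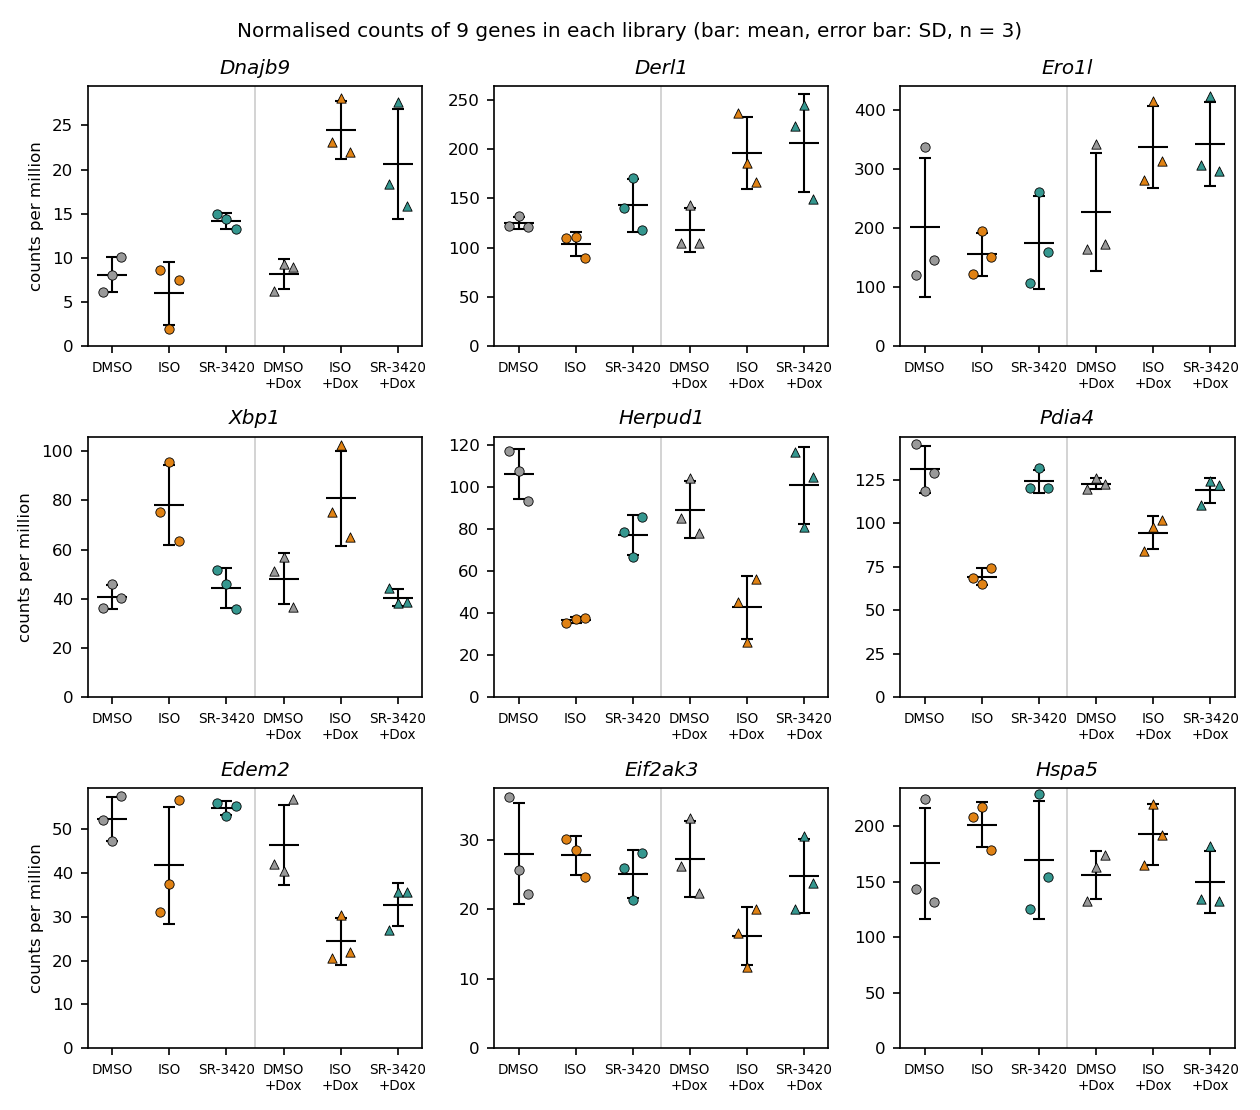
Normalised counts (CPM, vertical axis, from 0) of 9 genes in each of the 18 libraries, by group (horizontal axis), with circles for no Dox, triangles for Dox, a bar for the mean and an error bar for the SD (n = 3). Dnajb9 and Derl1 are highest in ISO and SR-3420 with Dox, Herpud1 is lowest in the ISO groups, and the Hspa5 groups overlap.

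SR-3420 without Dox moved none of the 34 genes by edgeR, against 0.698% of all genes that rose and 0.0688% that fell. At an unadjusted p under 0.05, 1 had risen and 2 had fallen, and DESeq2 and limma-voom also called 0. Dnajb9 read 15.0, 14.4 and 13.2 CPM, above its 3 DMSO libraries at 6.18, 8.10 and 10.1 CPM, but did not pass (log2 fold change 0.82, SE 0.37, edgeR adjusted p = 0.492).

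With Dox, SR-3420 raised Derl1 and Dnajb9 and lowered Dnajc3. That is 2 of 34 genes higher and 1 lower, against 6.53% and 3.37% of all genes. With a replicate block 5 genes were called, Ero1l and Pdia3 in addition, against 1568 of the 10178 genes tested. Derl1 read 223, 245 and 150 CPM, each above the 105, 144 and 105 CPM of DMSO with Dox (0.82, SE 0.18, edgeR adjusted p = 0.00218), and it kept the call without any single library, the one that stood apart included. Dnajb9 read 18.3, 27.6 and 15.9 CPM against 6.21, 9.30 and 8.92 CPM (1.40, SE 0.34, edgeR adjusted p = 0.00737). Its groups did not overlap, though the call was lost without replicate 1 of DMSO with Dox (1.16) or replicate 2 of SR-3420 with Dox (1.15). Dnajc3 (p58IPK, a cochaperone and inhibitor of eIF2α kinases) read 182, 205 and 176 CPM in DMSO with Dox and 112, 148 and 143 CPM in SR-3420 with Dox (-0.48, SE 0.15, edgeR adjusted p = 0.0302). This call was lost without 4 of the 6 libraries, among them the one that stood apart (-0.37), and without replicate 1 of DMSO with Dox only 1 of the 3 genes was called.

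Of the 5 genes of the sensor branches, Xbp1 rose with ISO, as given above. With ISO and Dox, Ern1 gave a log2 fold change of -0.06 (SE 0.21 by edgeR, adjusted p = 0.875), Atf6 0.54 (SE 0.32, edgeR adjusted p = 0.201) and Atf6b 0.27 (SE 0.21, edgeR adjusted p = 0.340). Eif2ak3 fell from 26.3, 33.1 and 22.3 CPM to 16.6, 11.7 and 20.1 CPM (-0.77, SE 0.26, edgeR adjusted p = 0.0262), groups that did not overlap. That fall was not called by DESeq2, nor without replicate 1 or 2 of DMSO with Dox or replicate 1 or 2 of ISO with Dox (-0.81 to -0.55 without those of ISO). With SR-3420 and Dox none of the 5 passed. The values were 0.24 for Ern1 (SE 0.20, edgeR adjusted p = 0.547), -0.26 for Xbp1 (SE 0.21, edgeR adjusted p = 0.516), 0.69 for Atf6 (SE 0.32, edgeR adjusted p = 0.185), -0.14 for Eif2ak3 (SE 0.25, edgeR adjusted p = 0.802) and 0.25 for Atf6b (SE 0.21, edgeR adjusted p = 0.545). Atf6 had 1 DMSO library with Dox far above the others (21.7 CPM against 9.55 and 7.80), and without that library, replicate 2, it passed for ISO (1.01) and for SR-3420 (1.17).

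The classical ER chaperones did not pass the test in any comparison. Hspa5 read 132, 163 and 174 CPM in DMSO with Dox, 166, 220 and 192 CPM in ISO with Dox and 134, 182 and 133 CPM in SR-3420 with Dox, so that all 3 groups overlapped. Its log2 fold change with Dox was 0.32 for ISO (95% interval -0.08 to 0.71) and -0.05 for SR-3420 (-0.46 to 0.36). Hsp90b1 read 201, 197 and 180 CPM in DMSO with Dox, 214, 231 and 225 CPM in ISO with Dox and 195, 211 and 168 CPM in SR-3420 with Dox. Its ISO libraries lay above all DMSO libraries with Dox, by little (0.21, SE 0.13, edgeR adjusted p = 0.204), while those of SR-3420 overlapped them. Hspa5, Hsp90b1, Calr and Canx (calnexin, a membrane chaperone of glycoproteins) were called in 0 of the 9 comparisons by edgeR, DESeq2 and limma-voom, and none had an unadjusted p under 0.05. Of the 10 genes with an ER stress element in the window, 0 rose with ISO or SR-3420, without or with Dox, by these 3 tools and at an unadjusted p under 0.05. With 10 genes and 0.698% to 16.4% of all genes rising, a count of 0 is near the background. Of these, Derl3 fell with ISO and Dox, and Dnajc3 with SR-3420 and Dox. Dnajb9 and Derl1, whose windows are printed above, held CCACG sites but neither full element, and of the 4 genes with element II, Herpud1 fell with ISO in both Dox states and Manf rose with ISO without Dox. The plot of fold changes by promoter element sets the genes with either element and those with neither side by side.

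**Figure D3:**
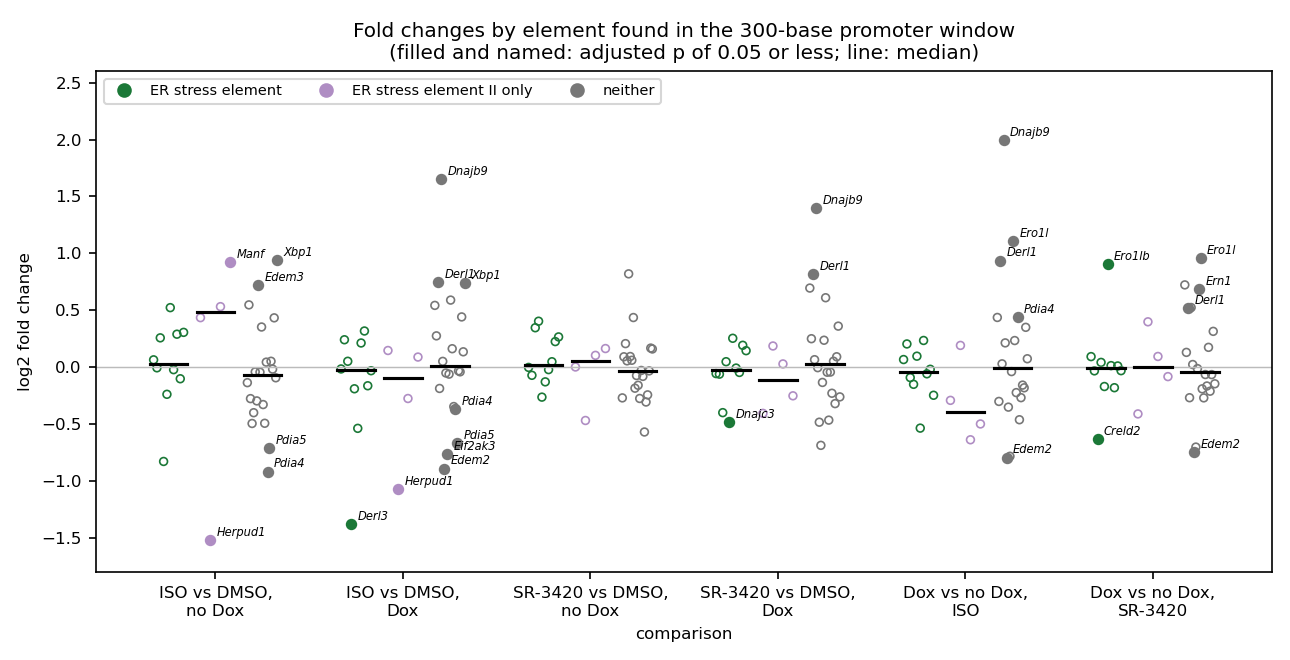
Log2 fold change (vertical axis) of each tested gene in 6 comparisons (horizontal axis), split by the element found in its promoter window, with filled named points for an adjusted p of 0.05 or less and lines for medians. Genes with the ER stress element (green) hold no filled point above 0 in the 4 stimulus comparisons, where Derl3 and Dnajc3 are filled below 0.

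Dox alone, in DMSO, moved 0 of the 34 genes by edgeR, against 1.09% of all genes that rose and 0.0884% that fell. At an unadjusted p under 0.05, 0 had risen and 1 had fallen, and DESeq2 and limma-voom called 0. The interferon genes moved with Dox in the same libraries, with 20 of 21 tested higher in DMSO and a summed level of 1640 to 3119 CPM with Dox against 363 to 524 CPM without. Their part in the results with Dox was not tested.

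Under ISO, Dox raised 4 of the 34 genes and lowered 1, against 7.89% and 4.82% of all genes. Dnajb9 was higher by 2.00 (SE 0.36, edgeR adjusted p = 0.000196) and Derl1 by 0.93 (SE 0.18, edgeR adjusted p = 0.00045) on the log2 scale, from the library values given above, and both kept their calls without any single library. Ero1l (ERO1α, the oxidase that recharges the disulfide isomerases) read 122, 195 and 152 CPM in ISO without Dox and 282, 416 and 314 CPM in ISO with Dox. No library without Dox reached the lowest one with Dox (1.11, SE 0.30, edgeR adjusted p = 0.0132). In each of the 6 groups replicate 2 was the highest for Ero1l, and in DMSO it stood far above the others (338 CPM against 121 and 146). The Ero1l call was lost by DESeq2, and without replicate 1 of ISO or replicate 2 of ISO with Dox. The fourth gene was Pdia4 (0.44), whose call was lost by DESeq2, with upper-quartile factors, library totals only or no filter on low counts, and without 4 of the 6 libraries. Edem2 was lower (-0.80, SE 0.23, edgeR adjusted p = 0.0193), with 31.1, 37.4 and 56.6 CPM without Dox and 20.7, 30.5 and 22.0 CPM with Dox, a call lost without replicate 3 of ISO (-0.47) and without replicate 1 or 3 of ISO with Dox. With a replicate block 7 were called, Eif2ak3 and Hyou1 in addition, against 1853 of the 10178 genes tested. The 5 calls became 3 without replicate 1 of ISO, or without replicate 2 of ISO with Dox.

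Under SR-3420, Dox raised 4 genes and lowered 2, against 7.26% and 4.28% of all genes. Ern1 read 22.5, 24.8 and 22.6 CPM without Dox and 38.4, 38.5 and 35.7 CPM with it, groups that did not overlap (0.68, SE 0.21, edgeR adjusted p = 0.0276). Ero1l was higher by 0.96 (SE 0.30, edgeR adjusted p = 0.0312), with 107, 261 and 160 CPM without Dox and 307, 424 and 297 CPM with Dox, so that 1 library without Dox came near the lowest with it. Ero1lb, its paralogue, was higher by 0.91 (SE 0.29, edgeR adjusted p = 0.0356), and Derl1 by 0.52. Creld2, a cysteine-rich secreted protein induced by ER stress, read 71.5, 66.3 and 68.5 CPM without Dox and 38.4, 44.4 and 50.5 CPM with it (-0.63, SE 0.17, edgeR adjusted p = 0.0144). Edem2 read 55.9, 53.0 and 55.3 CPM without Dox and 27.0, 35.5 and 35.7 CPM with it (-0.75, SE 0.21, edgeR adjusted p = 0.0172). In both the groups did not overlap. By DESeq2 0 were higher and 2 lower, and with library totals only 0 were higher and 4 lower, so that none of the 4 rises was called under either. These 6 calls also rested on single libraries. Of them 0 remained without replicate 1 of SR-3420, 2 without its replicate 3, 1 without replicate 1 of SR-3420 with Dox and 2 without its replicate 2, where Edem3 was newly called.

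The interaction tested whether the response itself differed between cells with and without Dox. For ISO, 2 genes passed in the positive direction and 0 in the negative, against 1.61% and 0.57% of all genes. At an unadjusted p under 0.05 the counts were 4 and 3, and DESeq2 called 1 and 0. Derl1 gave 1.03 (SE 0.26, edgeR adjusted p = 0.0293), from -0.28 without Dox to 0.75 with it, and Dnajb9 gave 2.06 (SE 0.56, edgeR adjusted p = 0.0485), from -0.40 to 1.66. Both stood close to the threshold. Leaving out any 1 of the 12 libraries ended the Dnajb9 call (1.69 to 2.32 on the log2 scale), and any 1 of 7 ended that of Derl1 (0.86 to 1.18 over the 12). The sensors did not pass, at -0.41 for Ern1 (SE 0.31, edgeR adjusted p = 0.588), -0.20 for Xbp1 (SE 0.29, edgeR adjusted p = 0.809), 0.68 for Atf6 (SE 0.47, edgeR adjusted p = 0.548), -0.72 for Eif2ak3 (SE 0.37, edgeR adjusted p = 0.374) and -0.27 for Atf6b (SE 0.30, edgeR adjusted p = 0.742). The rise of Xbp1 with ISO was thus 0.94 without Dox and 0.74 with it, with a difference between -0.79 and 0.39 (95% interval). For Herpud1 the difference was 0.45 (SE 0.29, edgeR adjusted p = 0.516), between -0.15 and 1.04 (95% interval).

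For SR-3420 the interaction passed for 0 of the 34 genes by edgeR, against 0.54% of all genes in the positive and 0.216% in the negative direction. At an unadjusted p under 0.05, 3 were positive and 2 negative, and DESeq2 and limma-voom called 0. With a replicate block 2 were called, Derl1 and Ero1l, against 339 of the 10178 genes tested. Dnajb9 was called in neither fit, at 0.82 without Dox and 1.40 with it. Its SR-3420 rise was thus not shown to differ between the Dox states. The sensors gave 0.31 for Ern1 (SE 0.31, edgeR adjusted p = 0.748), -0.42 for Xbp1 (SE 0.30, edgeR adjusted p = 0.613), 0.97 for Atf6 (SE 0.46, edgeR adjusted p = 0.402), 0.05 for Eif2ak3 (SE 0.35, edgeR adjusted p = 0.976) and 0.16 for Atf6b (SE 0.30, edgeR adjusted p = 0.885). The sign for Eif2ak3 turned under other scalings. The plot of responses without and with Dox sets the genes off the line of equal response beside those on it.

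**Figure D4:**
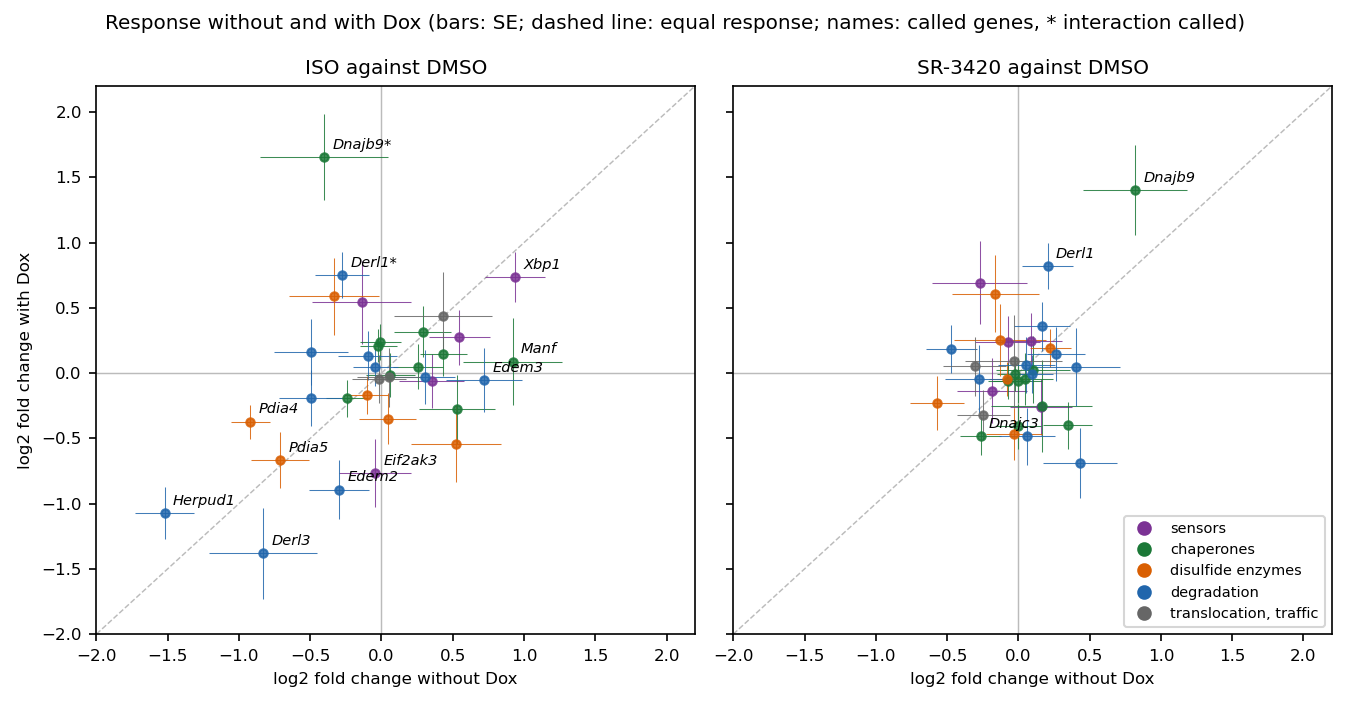
Log2 fold change of each tested gene without Dox (horizontal axis) and with Dox (vertical axis), for ISO (left) and SR-3420 (right), with bars for the SE, colours for the role, names for called genes and a star where the interaction passed. With ISO, Dnajb9 and Derl1 lie above the dashed line of equal response, Herpud1 and Xbp1 lie near it, and most genes sit around the origin.

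Counts by role are to be read against the shares over all genes, 16.4% higher and 16.1% lower for ISO with Dox and 6.53% and 3.37% for SR-3420 with Dox. The 10 tested chaperones and cochaperones had 1 gene higher and 0 lower with ISO and Dox, and 1 higher and 1 lower with SR-3420 and Dox, with medians of 0.12 and -0.06. The 6 disulfide enzymes had 0 higher and 2 lower, then 0 and 0, with medians of -0.36 and 0.07. The 10 ERAD genes had 1 higher and 3 lower, then 1 and 0, with medians of -0.04 and 0.06. Within the derlins, Derl1 rose with ISO and Dox, Derl3 fell, and Derl2 gave -0.19 (SE 0.21, edgeR adjusted p = 0.537). Sec61a1, Sec61b and Sec24d, of the translocation channel and the COPII coat, passed in 0 of the 9 comparisons by edgeR, with log2 fold changes of -0.04, 0.44 and -0.03 for ISO with Dox.

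Other genes of the pathway were taken from further lists. These leave out the 35, except for the study's marker list given below. Of 63 further ER genes (among them genes of translocation, glycosylation, export and degradation, and the cell death gene Bbc3), ISO with Dox raised 5 and lowered 3 (7.94% and 4.76%, against 16.4% and 16.1% of all genes). SR-3420 with Dox raised 0 and lowered 2 (0% and 3.17%, against 6.53% and 3.37%), and at an unadjusted p under 0.05 the counts were 5 and 4. By DESeq2 and limma-voom 0 rose as well. With ISO and Dox, Ssr1 (a translocon-associated subunit) rose by 0.67 (SE 0.18), Stt3b (an oligosaccharyltransferase) by 0.38 (SE 0.12) and Faf2 (an ERAD adaptor) by 0.48 (SE 0.17). Bbc3 (the cell death protein PUMA), Lman1 (a cargo receptor) and Txndc5 (a disulfide isomerase) gave -0.98, -0.42 and -0.43. With SR-3420 and Dox, Txndc11 gave -0.53 (SE 0.15) and Txndc5 -0.56 (SE 0.17). Without the library that stood apart 1 of the 63 rose and 1 fell, the Txndc5 call being lost (-0.59). In that fit 473 of 10321 genes rose. The medians over these 63 genes were 0.05 and 0.03.

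A further list, called the eIF2α kinase list here, held the other eIF2α kinases (Eif2ak1, Eif2ak2 and Eif2ak4), their substrate Eif2s1 and genes known to respond to these kinases, PERK included. Of 25 tested, 8 rose with ISO without Dox, 13 with ISO and Dox, 0 with SR-3420 without Dox (1 at an unadjusted p under 0.05, 0 by DESeq2 and limma-voom) and 12 with SR-3420 and Dox, shares to be read against 14.5%, 16.4%, 0.698% and 6.53% of all genes. Of the 25, 0 fell in any of these 4 by edgeR, DESeq2 or limma-voom or at an unadjusted p under 0.05. Eif2ak1 and Eif2s1 were among the 13 and Eif2ak4 among the 12, and Eif2ak2, an interferon-induced kinase, was higher with Dox alone by 1.59 (SE 0.27, edgeR adjusted p = 0.000403). The medians with Dox were 0.55 for ISO and 0.75 for SR-3420. With SR-3420 and Dox, Slc3a2 (an amino acid transporter subunit) rose by 1.59 (SE 0.15), Trib3 (a pseudokinase) by 2.29 (SE 0.27) and Atf3 (a stress transcription factor) by 3.37 (SE 0.43). With ISO and Dox, Slc3a2 rose by 1.52 (SE 0.15), Aldh18a1 (proline synthesis) by 1.60 (SE 0.19) and Asns (asparagine synthetase) by 1.38 (SE 0.28). Without the library that stood apart, 7 of the 25 rose with SR-3420 and Dox, beside 473 of the 10321 genes tested in that fit. Slc3a2 (1.41), Trib3 (2.03) and Atf3 (3.31) were still called. For SR-3420 the interaction passed for 3 of the 25, Slc3a2, Trib3 and Nupr1, against 0.54% of all genes. Without that library 2 of the list passed and Nupr1 lost its call, beside 25 of all 10321 genes in the positive direction. For ISO the interaction passed for 0 of the list by edgeR and limma-voom and 1 by DESeq2 (6 at an unadjusted p under 0.05), against 1.61% of all genes. Kinase activity was not measured. Of 23 UPR markers taken from the study's list, from which a further marker was not analysed here, 20 had a row and 18 were tested, with Derl1, Dnajb9, Ero1l and Hspa5 also among the 35. With ISO and Dox 7 were higher and 2 lower (38.9% and 11.1%, against 16.4% and 16.1% of all genes). With SR-3420 and Dox 8 were higher and 0 lower (44.4% and 0%, against 6.53% and 3.37%). Of these 8, Asns, Atf3, Eif2ak4 and Sars were also called in the eIF2α kinase list, and Derl1 and Dnajb9 are among the 35. Asns, Atf3, Derl1 and Dnajb9 were among the 7 as well, so the lists are not separate evidence. Without the library that stood apart 6 were higher with SR-3420 and Dox, beside 473 of the 10321 genes tested in that fit. All 18 had a positive ISO interaction (median 0.67), of which 2 passed (11.1% against 1.61% of all genes). These 2 were Derl1 and Dnajb9, already given above among the 35. For SR-3420, 15 of 18 had a positive interaction (median 0.68), of which 0 passed by edgeR (0.54% of all genes) and limma-voom. DESeq2 called 2, and 8 had an unadjusted p under 0.05. The study chose this marker list, so it is not independent evidence of its direction.

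Adipocyte markers moved with the same stimuli. Of 14 listed 13 had a row and 11 were tested, and their summed level was 2845 to 3052 CPM in DMSO with Dox, 4820 to 5777 CPM in ISO with Dox and 4338 to 4989 CPM in SR-3420 with Dox, with all 11 higher for ISO and 8 for SR-3420 (100% and 72.7%, against 16.4% and 6.53% of all genes), and 5 for SR-3420 without the library that stood apart (beside 473 of 10321 genes in that fit). Without Dox it was 2275 to 2690 CPM in DMSO, 2562 to 2959 CPM in ISO and 3316 to 3563 CPM in SR-3420, with 4 higher for ISO and 2, Fabp4 and Plin1, for SR-3420 (36.4% and 18.2%, against 14.5% and 0.698%). Dio2, a marker of stimulated brown fat, was at 0 in every library. Preadipocyte markers summed to 440 to 1031 CPM over the 18 libraries, macrophage markers to 5.96 to 21.9 CPM, endothelial markers to 5.30 to 25.6 CPM and skeletal muscle markers to 0 to 3.49 CPM. The endothelial sum was higher with ISO, at 20.9 to 25.6 CPM against 5.30 to 16.1 CPM in DMSO without Dox. With Dox it was 17.2 to 21.9 CPM against 7.23 to 11.5 CPM. Tek, the 1 endothelial marker tested, rose in both (1.25 and 1.13). Of 4 preadipocyte markers tested, ISO raised Ly6a without Dox (25%, against 14.5% of all genes) and lowered Col1a1 with Dox (25%, against 16.1%). In bulk RNA, fewer cells of a kind and less RNA per cell cannot be told apart, and the part of these marker shifts in the values above was not tested.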

How the data were processed

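Whole-number read counts per gene were deposited for 18 libraries. Per the study's methods and the submitters' processing notes, the authors mapped reads to mouse mm9 with STAR 2.4.2a, kept 1 read per position and length with HOMER, and counted with the gene option of iRNA-seq. The deposited lengths and rows point to intronic counts, which the methods do not state. Libraries were grouped by their labels (6 groups, 3 libraries each), and all columns were used. From the counts, genes were filtered with filterByExpr (10178 of 17672 tested), scaled by TMM and fitted with 1 mean per group in edgeR 4.0.16 (R 4.3.3), whose two-sided quasi-likelihood F test gave 9 contrasts, each adjusted by Benjamini-Hochberg. The biological coefficient of variation was 0.1327. The code was tested on simulated counts. Totals of 689910 to 1956565 counts limit the precision for low genes. Alternatives used DESeq2 1.42.0, limma-voom 3.58.1, other scalings, filters and thresholds, a replicate term, and each library left out.

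The genes and lists were chosen with earlier results of these data known. Full statistics are given for the sensors in the contrasts with Dox and both interactions, and in each contrast for up to 3 called genes a direction, by smallest p. Promoters were read from the mm9 genome sequence at the table's start sites; motifs are descriptions. A gene outside the table was not analysed here.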

Additional observations from a re-analysis of the deposited data

Results flagged for a closer look

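The ISO response of Dnajb9 differed between cells with and without Dox in the test of the difference itself, by 2.06 on the log2 scale (SE 0.56, n = 3 libraries in each of 4 groups, edgeR quasi-likelihood adjusted p = 0.0485). Counts were low, with 20 over the 3 ISO libraries without Dox and 87 over the 3 with Dox, and the call ended when any 1 of the 12 libraries was left out.

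The ISO response of Derl1 differed in the same way, by 1.03 (SE 0.26, edgeR quasi-likelihood adjusted p = 0.0293). Its call ended when any 1 of 7 of the 12 libraries was left out. Adipocyte markers moved along with both genes, with 2 of 11 (Adipoq and Fabp4, 18.2% against 1.61% of all genes) also passing this interaction, and interferon genes were higher with Dox in every stimulus; the part of either in these results was not tested.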

How the results depend on the processing

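Over the named genes' fold changes, 630 alternative values kept their direction and their side of the threshold, 109 fell short of it, 2 passed it and 7 turned sign. All 7 turns were Eif2ak3 values near 0: with SR-3420 and Dox it moved from -0.14 to 0.0034 without replicate 1 of that group (-0.30 to 0.0034 over the 6 libraries left out), and its SR-3420 interaction moved from 0.05 to -0.015 with upper-quartile factors, -0.085 with library totals only, and -0.21 to 0.20 with libraries left out.

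Counts of called genes moved by over 1.5 times as follows, with the count over all genes in the same fit in brackets. With a log2 fold change of at least 1 they were 1 (1109) for ISO without Dox, 3 (1334) for ISO with Dox and 1 (316) for SR-3420 with Dox. With that limit they were 2 (475) for Dox under ISO and 0 (346) for Dox under SR-3420. With an adjusted p of 0.01 or less they were 2 (712) for Dox under ISO, 0 (574) for Dox under SR-3420 and 0 (79) for the ISO interaction. DESeq2 gave 3 (1021) for Dox under ISO, 2 (887) for Dox under SR-3420 and 1 (256) for the ISO interaction. The ISO interaction also gave 1 with upper-quartile factors (195), library totals only (130) and a minimum of 10 counts in every library (224), a filter under which Dnajb9 was not tested. With library totals only, SR-3420 with Dox gave 5 (1026). With 1 library left out the counts ran from 1 to 4 (642 to 848) for SR-3420 with Dox and 3 to 4 (908 to 1140) for Dox under ISO. They ran from 0 to 5 (750 to 931) for Dox under SR-3420 and 0 to 1 (111 to 301) for the ISO interaction. Beyond the construction of the thresholds and filters, the cause was not tested.

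Scaling by library totals only shifted the median of all genes by -0.17 for ISO without Dox, -0.14 for ISO with Dox, -0.19 for SR-3420 with Dox, -0.23 for Dox under SR-3420 and -0.14 for the SR-3420 interaction, and upper-quartile factors shifted it by -0.12 for ISO with Dox. With library totals only, higher against lower calls over all genes went from 1474 and 1374 to 845 and 1928 for ISO without Dox, from 1669 and 1640 to 1119 and 2073 for ISO with Dox, from 665 and 343 to 327 and 699 for SR-3420 with Dox, from 739 and 436 to 334 and 1147 for Dox under SR-3420, from 164 and 58 to 110 and 20 for the ISO interaction and from 55 and 22 to 16 and 26 for the SR-3420 interaction. Upper-quartile factors gave 1293 and 2193 for ISO with Dox, 551 and 493 for SR-3420 with Dox, 661 and 672 (from 803 and 491) for Dox under ISO, 621 and 619 for Dox under SR-3420, 117 and 78 for the ISO interaction and 44 and 39 for the SR-3420 interaction.

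Groups share replicate numbers, but the labels do not say that a number marks a shared day. Same-numbered libraries deviated together with r over 0.1 in 36 of 45 pairs (0.039 to 0.28), and each of the 18 libraries had its highest mean r with its own number, a hint from the data and not from the design. All 3 pairs were over 0.1 between DMSO and each stimulus with Dox, between DMSO and SR-3420 without Dox and between ISO without and with Dox, but not over the 4 groups of either interaction. A fit with a replicate block gave 5 called genes for SR-3420 with Dox (adding Ero1l and Pdia3), beside 1568 over all genes. It gave 2 for the SR-3420 interaction (Derl1 and Ero1l), beside 339 over all genes. It added Ero1l to the ISO interaction (3), beside 600 over all genes, and moved no other count by over 1.5 times.

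Without replicate 1 of SR-3420 with Dox, a choice made after seeing the data, 6 of 18 study markers and 5 of 11 adipocyte markers rose with SR-3420 and Dox in place of 8 and 8. Of the 25 genes of the eIF2α kinase list, 7 rose with SR-3420 and Dox in place of 12. With Dox under SR-3420 8 rose in place of 12, and 2 in place of 3 passed the SR-3420 interaction. Calls over all genes fell too, with 473 of 10321 higher with SR-3420 and Dox in place of 665 of 10178. With Dox under SR-3420 514 were higher in place of 739, and 25 in place of 55 passed the SR-3420 interaction in the positive direction.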
